A study of Mus musculus with 21 samples.

Results

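The 41 genes described here encode the enzymes, carriers and regulators of fatty acid oxidation in mitochondria and peroxisomes. They were listed by symbol, found in the gene-name column of the deposited table of genes and linked by Ensembl identifier to the counts. All 41 were among the 20634 genes held by both count tables, and all 41 passed the filter on low counts in each comparison. RNA was sequenced from the kidney of female apoE knockout mice on a C57BL/6J background, 18 weeks old, after 14 weeks on their diets. The Con group (5 mice) received the control diet, the Ade group (6 mice) the same diet with adenine, which damages the kidney tubules, and the Ade + IMC group (6 mice) adenine together with iodomethylcholine (IMC), an inhibitor of the bacterial enzyme that makes trimethylamine. Every mouse of the 3 groups lacked apoE, so no comparison speaks of mice with apoE. The 4 mice given IMC without adenine were not analysed here.

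Fatty acids are the main fuel of the proximal tubule. They are first joined to coenzyme A, carried into mitochondria as carnitine esters, and shortened there by rounds of dehydrogenation, hydration, dehydrogenation and thiolysis, with electrons leaving through the electron transfer flavoprotein. Peroxisomes shorten very long, branched and hydroxylated chains by a similar cycle with other enzymes, and the nuclear receptor PPARα (Ppara), with its coactivator PGC-1α (Ppargc1a), switches on many genes of both pathways.

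A binding site of PPARα and its relatives is a direct repeat of AGGTCA with 1 base between the copies, called DR1. In RefSeq promoter windows (GRCm38.p6, 250 bases before to 50 after the start of the gene), 37 of the 41 genes had at least 1 window, 42 windows in all. A DR1 with at most 2 mismatches, on either strand, was in 4 of these windows (9.52%), against 3.86% of all 32851 windows. The windows were those of Echs1, Etfa, Acox2 and Slc25a20. The 2 matches that lay before the start are shown because they belong to 2 genes of the mitochondrial pathway described further on, with the repeat in capitals and 20 bases on each side, read along the strand of the gene. The first is chr7:140116472-140116524 and the second chr9:55512288-55512340, both on the minus strand. The repeat lay 83 to 71 bases before the start of Echs1 and 77 to 65 bases before that of Etfa, where it reads on the opposite strand.
Echs1: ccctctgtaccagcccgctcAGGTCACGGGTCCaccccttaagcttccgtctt
Etfa: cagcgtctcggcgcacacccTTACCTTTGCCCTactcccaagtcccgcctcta
The exact sequence TCAAGGTCA, a binding site of estrogen-related receptors, was in 0 of the 42 windows and in 0.423% of all windows. The exact sequence CAAAGTCCA, the core of a binding site of HNF4α, was in 1 (2.38%, that of Abcd3) and in 0.475% of all windows. These matches describe letters in a short window and are not measured binding.

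The total count per mouse was 7716126 to 11680809 in the Con group, 5444833 to 7673215 in the Ade group and 5728589 to 8305968 in the Ade + IMC group. Levels of single mice are given as CPM, read counts brought to a common library size by scaling of the 17 libraries with the TMM method. Differences between groups are log2 fold changes with their standard error (SE), and a gene was called changed at a Benjamini-Hochberg adjusted p below 0.1 over all genes tested. In a bulk sample, fewer cells of a type and less RNA per cell cannot be told apart. Of the lists of other cell types, markers of the proximal tubule fell in the Ade group in 18 of 18 genes tested (median log2 fold change -2.001), those of the thick ascending limb and distal tubule in 7 of 8, those of the collecting duct in 6 of 6 and those of endothelium in 4 of 6, whereas 8 of 8 fibroblast, 8 of 8 myeloid, 8 of 8 lymphocyte and 9 of 9 tubular injury genes rose. Of 5 podocyte markers 1 was called higher and 0 lower, but 4 of the 5 fold changes were below 0 (median log2 fold change -0.43). The called marker, Synpo, was near the threshold (edgeR adjusted p = 0.0852). Of 10 housekeeping genes 4 rose and 4 fell. Among all 14612 genes tested, 32.2% were called lower and 35.1% higher.

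The libraries of 4 mice stood apart in adipocyte genes. Ucp1, the uncoupling protein of brown fat, was at 379 CPM in Ade + IMC mouse 212, at 81.7 and 81.0 CPM in Ade + IMC mice 211 and 410, and at 76.8 CPM in Ade mouse 207, and it was at most 9.39 CPM in the other 13 mice. The summed level of 9 of the 10 adipocyte markers listed was 186 to 272 CPM in the Con group, 145 to 590 CPM in the Ade group and 156 to 2223 CPM in the Ade + IMC group, with mouse 212 the highest. Fabp4 and Pnpla2 made up most of the sum in the Con group. Against Con, 4 of the listed adipocyte markers were tested in the Ade group, of which 2 rose and 1 fell. In the Ade + IMC group 5 were tested and 4 rose. Some of these markers passed the low-count filter only through the mice where they were high, so the counts are no test. Brown fat oxidises fatty acids with the same mitochondrial enzymes, so the main counts and medians are also given without these 4 mice, a choice made after the values were seen. Their omission leaves 5 Ade and 3 Ade + IMC mice. Without the 4 mice only 3 adipocyte markers passed the low-count filter against Con in each comparison, and 0 of these rose. The mice were picked by Ucp1, itself a listed marker, so this was fixed by the choice and is no test. What part of a difference adipocyte transcripts account for was not tested.

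Nearly the whole pathway was lower in the adenine-fed mice. In the Ade group, 40 of the 41 genes were lower than in the Con group and 0 were higher, and the 41st, Acsm3, was not called. Among all 14612 genes tested, 32.2% were called lower and 35.1% higher. The median log2 fold change of the 41 genes was -0.93, against 0.02 over all genes. The highest Ade mouse lay below the lowest Con mouse in 31 of the 41 genes, as in 20.6% of all genes. Without Ade mouse 207, 40 genes were lower, with a median of -0.89. The plot of fold changes shows the genes by role.

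**Figure D1:**
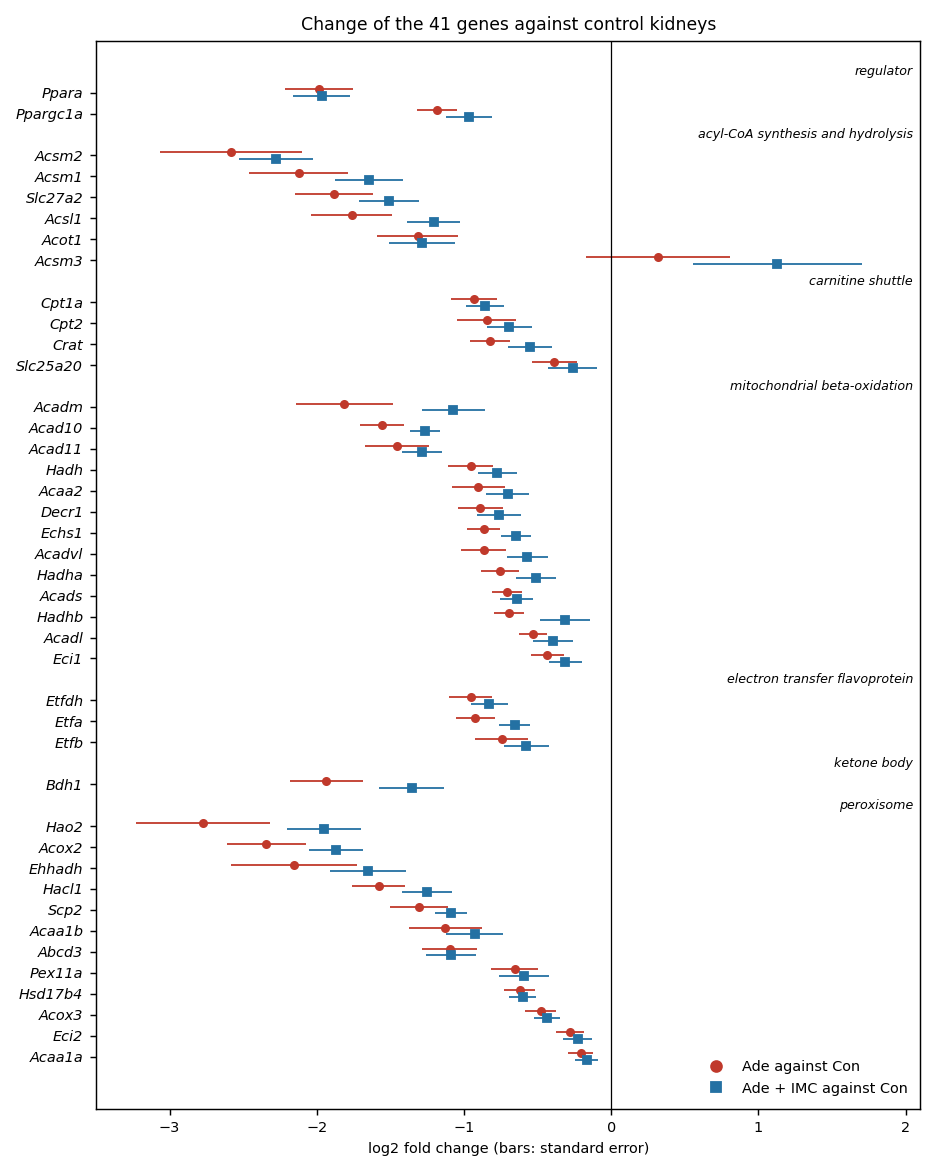
Log2 fold change (x axis, unitless) of each of the 41 genes against the Con group, for the Ade group (red circles) and the Ade + IMC group (blue squares), with bars of 1 SE, grouped by role. All genes but Acsm3 lie left of 0, and Hao2 lies farthest left in the Ade group, at -2.78.

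Levels in the Con group differed widely between the genes. Per kilobase of annotated exon, Slc27a2 was the highest in the Con group at 1213 CPM per kb, followed by Hao2 at 702, Acadm at 292, Etfb at 291 and Ehhadh at 279 CPM per kb. Acsm3 was the lowest at 0.352 CPM per kb. Exon length here joins all annotated isoforms, so the level of a gene with long rare isoforms is understated. Their falls in the Ade group did not follow this order, from -2.78 for Hao2 to -0.75 for Etfb on the log2 scale.

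Both regulators fell. Ppara was at 104, 76.7, 61.6, 113 and 71.5 CPM in the 5 Con mice. It ranged from 12.5 to 35.6 (median 20.5) CPM in the Ade mice, 3.96-fold lower (log2 fold change -1.98 ± 0.23 SE, adjusted p = 9.13e-06). No Ade mouse reached the lowest Con mouse. Ppargc1a was at 181, 137, 123, 149.6 and 117 CPM in the Con mice and at 44.9 to 77.9 (median 59.9) CPM in the Ade mice, 2.27-fold lower (log2 fold change -1.18 ± 0.14 SE, adjusted p = 8.83e-06), again with no overlap of the groups.

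Acyl-CoA synthesis and hydrolysis held several of the largest falls, with a median log2 fold change of -1.82 over its 6 genes and 5 of 6 called lower. Acsm2, a medium-chain acyl-CoA synthetase of the kidney and liver, was at 1453, 1107, 1096, 1825 and 1173 CPM in the Con mice. In the Ade mice it ranged from 44.7 to 524 (median 200.3) CPM, a 6.00-fold fall (log2 fold change -2.58 ± 0.48 SE, adjusted p = 4.24e-04). The groups did not overlap, but the Ade mice differed among themselves more in this gene than in any other of the 41 (SD 1.29 on the log2 scale). Its neighbour on chromosome 7, Acsm1, was at 493, 399, 434, 391 and 567 CPM in the Con mice and at 37.9 to 208 (median 93.3) CPM in the Ade mice, 4.35-fold lower (log2 fold change -2.12 ± 0.34 SE, adjusted p = 1.13e-04). Slc27a2, which encodes the fatty acid transporter and very-long-chain acyl-CoA synthetase FATP2, was at 4614, 3922, 4720.4, 4533 and 4987 CPM in the Con mice. It was at 682 to 2139 (median 1096) CPM in the Ade mice, 3.68-fold lower (log2 fold change -1.88 ± 0.27 SE, adjusted p = 4.47e-05). All 6 Ade mice were below all 5 Con mice in both genes. Acsl1, the main long-chain acyl-CoA synthetase, was at 819.6, 614, 836, 1060.1 and 686 CPM in the Con mice and at 122 to 426 (median 214) CPM in the Ade mice, 3.39-fold lower (log2 fold change -1.76 ± 0.28 SE, adjusted p = 1.02e-04). Acot1, a cytosolic thioesterase that frees the fatty acid again, fell 2.49-fold (log2 fold change -1.31 ± 0.27 SE, adjusted p = 9.75e-04), but 19.2% of its 50-base windows occur in Acot2 and other genes, so its reads could be split between copies.

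Acsm3 was the exception and was barely expressed. Its level was 1.31, 3.03, 1.35, 1.69 and 1.31 CPM in the Con mice and 0.909 to 6.23 (median 1.40) CPM in the Ade mice (log2 fold change 0.32 ± 0.49 SE, adjusted p = 0.595). The highest mouse of each group was Con 202, Ade 207 and Ade + IMC 212, which were also the mice with the highest Ucp1 of their group, at 9.39, 76.8 and 379 CPM. Without Ade mouse 207 the log2 fold change of Acsm3 against Con was -0.40, with an adjusted p of 0.260. Part of its exons (39.7%) overlaps Eri2, and the use of strand in counting is not given in the sources used here.

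The carnitine shuttle fell less, by a median of -0.84 on the log2 scale, with 4 of 4 genes called. Cpt1a, the carnitine palmitoyltransferase of the outer membrane and the controlled step of mitochondrial oxidation, was at 748, 622, 694, 867 and 590.2 CPM in the Con mice. In the Ade mice it was at 274 to 482 (median 363) CPM, 1.91-fold lower (log2 fold change -0.93 ± 0.16 SE, adjusted p = 1.77e-04), without overlap. Cpt2, its partner on the inner membrane, was at 172, 128, 182, 237 and 168 CPM in the Con mice and at 66.8 to 154 (median 87.5) CPM in the Ade mice (log2 fold change -0.85 ± 0.20 SE, adjusted p = 0.00227). Here the highest Ade mouse, 407, was above the lowest Con mouse. Crat, carnitine acetyltransferase, was at 177, 145, 184, 221 and 184 CPM in the Con mice and at 83.5 to 136 (median 92.6) CPM in the Ade mice (log2 fold change -0.82 ± 0.13 SE, adjusted p = 1.43e-04), without overlap. Slc25a20, the carnitine-acylcarnitine translocase between the 2 transferases, moved least (log2 fold change -0.39 ± 0.15 SE, adjusted p = 0.0411), and the call was lost without Con mouse 302 (adjusted p = 0.127).

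In the mitochondrial cycle itself 13 of 13 genes fell, with a median of -0.87 and a range of -1.81 to -0.43. Acadm, medium-chain acyl-CoA dehydrogenase, fell most. It was at 1556, 772, 1028, 1213 and 1140.0 CPM in the Con mice and at 157 to 710.0 (median 263) CPM in the Ade mice, 3.51-fold lower (log2 fold change -1.81 ± 0.33 SE, adjusted p = 3.61e-04). The highest Ade mouse was 407 and the groups did not overlap. Acad10 was at 103, 87.2, 89.1, 94.4 and 98.1 CPM in the Con mice and at 23.2 to 47.8 (median 27.7) CPM in the Ade mice (log2 fold change -1.56 ± 0.15 SE, adjusted p = 1.70e-06). Acad11, a dehydrogenase for long chains that is also found in peroxisomes, was at 293, 254, 271, 359 and 302 CPM in the Con mice and at 66.6 to 172 (median 104) CPM in the Ade mice (log2 fold change -1.45 ± 0.22 SE, adjusted p = 6.69e-05). Neither gene overlapped between the groups. Acad10 shares 17.1% of its 50-base windows with Acad12 and other genes.

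The other acyl-CoA dehydrogenases fell less. The very-long-chain enzyme Acadvl had a log2 fold change of -0.87 ± 0.15 SE (adjusted p = 2.57e-04), the short-chain enzyme Acads one of -0.71 ± 0.10 SE (adjusted p = 4.35e-05) and the long-chain enzyme Acadl one of -0.53 ± 0.10 SE (adjusted p = 3.40e-04). Dvl2 overlaps 42.9% of the exons of Acadvl. Both subunits of the trifunctional protein fell, Hadha by a log2 fold change of -0.76 and Hadhb by one of -0.69. Hadhb was at 41.1, 31.8, 40.6, 42.9 and 36.8 CPM in the Con mice and at 19.8 to 27.8 (median 22.5) CPM in the Ade mice, without overlap (adjusted p = 7.58e-05), and 19.7% of its 50-base windows occur in Gm13910 and other genes. The remaining enzymes of the cycle, the hydratase Echs1 (-0.87), the hydroxyacyl-CoA dehydrogenase Hadh (-0.95), the thiolase Acaa2 (-0.90) and the auxiliary enzymes of unsaturated chains Decr1 (-0.89) and Eci1 (-0.43), fell as well.

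The 3 genes that pass the electrons on all fell. Etfa, a subunit of the electron transfer flavoprotein, was at 259, 256, 272, 261 and 308 CPM in the Con mice and at 107 to 196 (median 130.4) CPM in the Ade mice (log2 fold change -0.92 ± 0.13 SE, adjusted p = 5.38e-05). Etfdh, which hands the electrons to ubiquinone, was at 216, 165, 207, 252 and 206 CPM in the Con mice and at 79.4 to 147 (median 108) CPM in the Ade mice (log2 fold change -0.95 ± 0.15 SE, adjusted p = 9.01e-05). The other subunit, Etfb, was at 302, 282, 345, 329 and 435 CPM in the Con mice and at 132 to 273 (median 193) CPM in the Ade mice (log2 fold change -0.75 ± 0.18 SE, adjusted p = 0.00247). None of the 3 overlapped between the groups. Etfb is uncertain, because 58.2% of its exons overlap Gm45233 or Mir7051. Bdh1, the mitochondrial 3-hydroxybutyrate dehydrogenase of ketone body metabolism, was at 278, 247, 263, 197 and 279 CPM in the Con mice and at 38.1 to 109.8 (median 53.4) CPM in the Ade mice, 3.82-fold lower (log2 fold change -1.93 ± 0.25 SE, adjusted p = 2.11e-05) and without overlap.

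In the peroxisome 12 of 12 genes fell, with a median log2 fold change of -1.11 and a wider range, -2.78 to -0.21, than the 21 mitochondrial genes (shuttle, cycle, flavoprotein and Bdh1 together), whose median was -0.87 and range -1.93 to -0.39. When Crat, Acad11 and Slc27a2, which are also known from peroxisomes, were counted there and Eci2 with the mitochondrion, the medians were -1.22 and -0.87. These medians are descriptions, and their difference was not tested. Hao2, an oxidase of 2-hydroxy acids abundant in kidney, fell most of all 41 genes. It was at 1569.6, 1302, 1333, 1459 and 1531 CPM in the Con mice and at 58.0 to 526 (median 151) CPM in the Ade mice, 6.85-fold lower (log2 fold change -2.78 ± 0.45 SE, adjusted p = 1.49e-04). Even the highest Ade mouse, 407, was below every Con mouse. Acox2, the oxidase of branched chains and bile acid intermediates, was at 162, 123, 154, 128 and 186 CPM in the Con mice. It was at 14.4 to 56.9 (median 24.3) CPM in the Ade mice, 5.07-fold lower (log2 fold change -2.34 ± 0.27 SE, adjusted p = 6.83e-06). Ehhadh, the L-bifunctional enzyme, was at 928, 479, 897, 1199 and 650.1 CPM in the Con mice and at 68.9 to 468 (median 144) CPM in the Ade mice, 4.46-fold lower (log2 fold change -2.16 ± 0.43 SE, adjusted p = 6.71e-04). The groups did not overlap in either gene, and the Ehhadh levels of the Ade mice differed widely, from 68.9 to 192 CPM in 5 mice and 468 CPM in mouse 407.

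Next came Hacl1, the lyase of α-oxidation (-1.58), Scp2, the sterol carrier protein and thiolase (-1.31), the thiolase Acaa1b (-1.13) and Abcd3, a transporter of the peroxisomal membrane (-1.10). Pex11a, which acts in peroxisome division, had a log2 fold change of -0.66, the D-bifunctional enzyme Hsd17b4 one of -0.62 and the oxidase Acox3 one of -0.48. The smallest falls were those of Eci2 (log2 fold change -0.28 ± 0.09 SE, adjusted p = 0.0202) and Acaa1a (log2 fold change -0.21 ± 0.09 SE, adjusted p = 0.0481). Both depended on the scaling, since with libraries scaled to their total count alone their log2 fold changes were 0.02 and 0.09. That scaling also ended the calls of Eci1 (adjusted p = 0.220), Acox3 (adjusted p = 0.118) and Slc25a20 (adjusted p = 0.550). The call of Acaa1a was lost as well with upper-quartile scaling (adjusted p = 0.199) and without Con mouse 301 (0.101), Con mouse 403 (0.110) or Ade mouse 409 (0.102). Windows of 50 bases shared with other genes made up 28.4% of Hacl1 (Gm49387 and others), 29.7% of Scp2 (Scp2-ps2), 30.5% of Acaa1b (Acaa1a) and 12.9% of Acaa1a (Acaa1b and others).

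**Figure D2:**
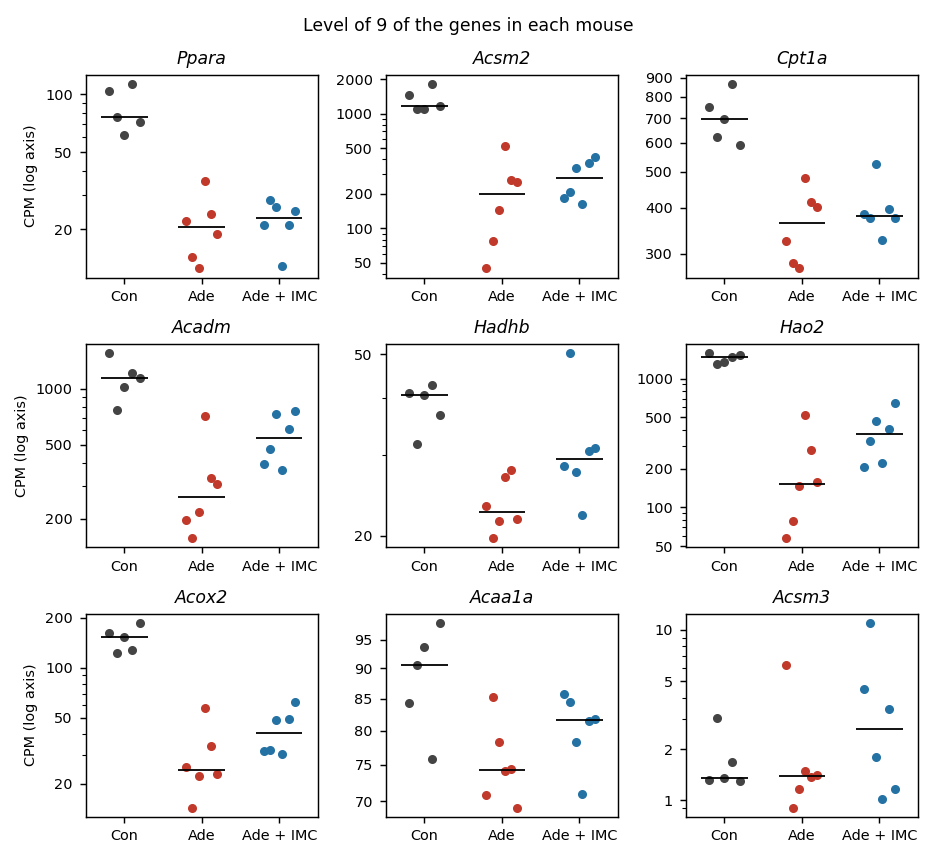
CPM (y axis, log scale, different for each gene) of 9 of the genes in each mouse of the Con, Ade and Ade + IMC groups (points), with the group median as a line. Ppara, Acsm2, Cpt1a, Acadm, Hao2 and Acox2 are lower in every adenine-fed mouse than in every Con mouse, and Acaa1a and Acsm3 overlap between all groups.

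Genes of similar function differed in the size of their falls. The ratio of 2 genes within a library does not depend on how libraries are scaled, and 4 such pairs are given. They were chosen after their values were seen, so they are a description and were not tested. The log2 ratio of Acox2 to Acox3 counts was -0.13 ± 0.21 (SD, n = 5) in the Con mice and -2.11 ± 0.53 (SD, n = 6) in the Ade mice, a difference of -1.98. That of Acadm to Acadl was 1.67 ± 0.33 (SD, n = 5) and 0.24 ± 0.65 (SD, n = 6), a difference of -1.43. For the thiolases, the ratio of Acaa1b to Acaa1a was 0.71 ± 0.22 (SD, n = 5) and -0.29 ± 0.66 (SD, n = 6), a difference of -0.99. In these 3 pairs no Ade mouse overlapped the Con mice. The ratio of Eci1 to Eci2 differed by -0.17, and its groups overlapped. Without Ade mouse 207 the Ade means were -2.10, 0.35, -0.15 and -0.32 in the same order.

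**Figure D3:**
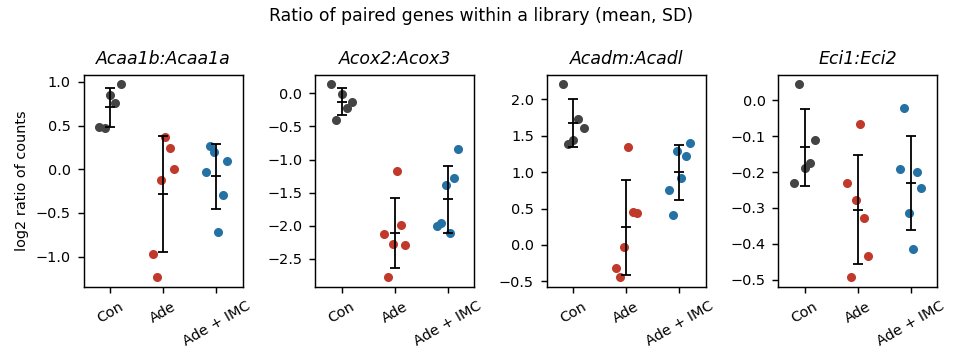
Log2 ratio of the counts of paired genes (y axis) within each library of the Con, Ade and Ade + IMC groups (points), with the mean and SD in black. The ratios Acaa1b:Acaa1a, Acox2:Acox3 and Acadm:Acadl separate the Con from the Ade mice, whereas Eci1:Eci2 overlaps.

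The adenine-fed mice were not alike. Over the 41 genes the median SD between mice on the log2 scale was 0.37 in the Ade group and 0.32 in the Ade + IMC group, against 0.19 and 0.19 for the 10791 genes with a mean of at least 10 CPM, and 0.21 against 0.16 in the Con group. In each mouse the median of the 21 mitochondrial genes was taken relative to their Con means. On the log2 scale it was -0.42 in Ade mouse 407, -0.65 in 408, -0.98 in 409, -0.997 in 207, -1.14 in 308 and -1.30 in 208. The 12 peroxisomal genes had 407 highest (-0.55) and 208 lowest (-1.74) as well. In the Ade + IMC group the mitochondrial median was lowest in mouse 311 (-1.09) and -0.67 to -0.43 in the other 5 mice. The median of the proximal tubule markers was -1.02 in mouse 407, the highest of the Ade group, and -2.98 and -2.94 in 207 and 208, and in mouse 311 it was -2.09, the lowest of the Ade + IMC group. What part of the falls goes with the loss of tubule markers was not tested.

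**Figure D4:**
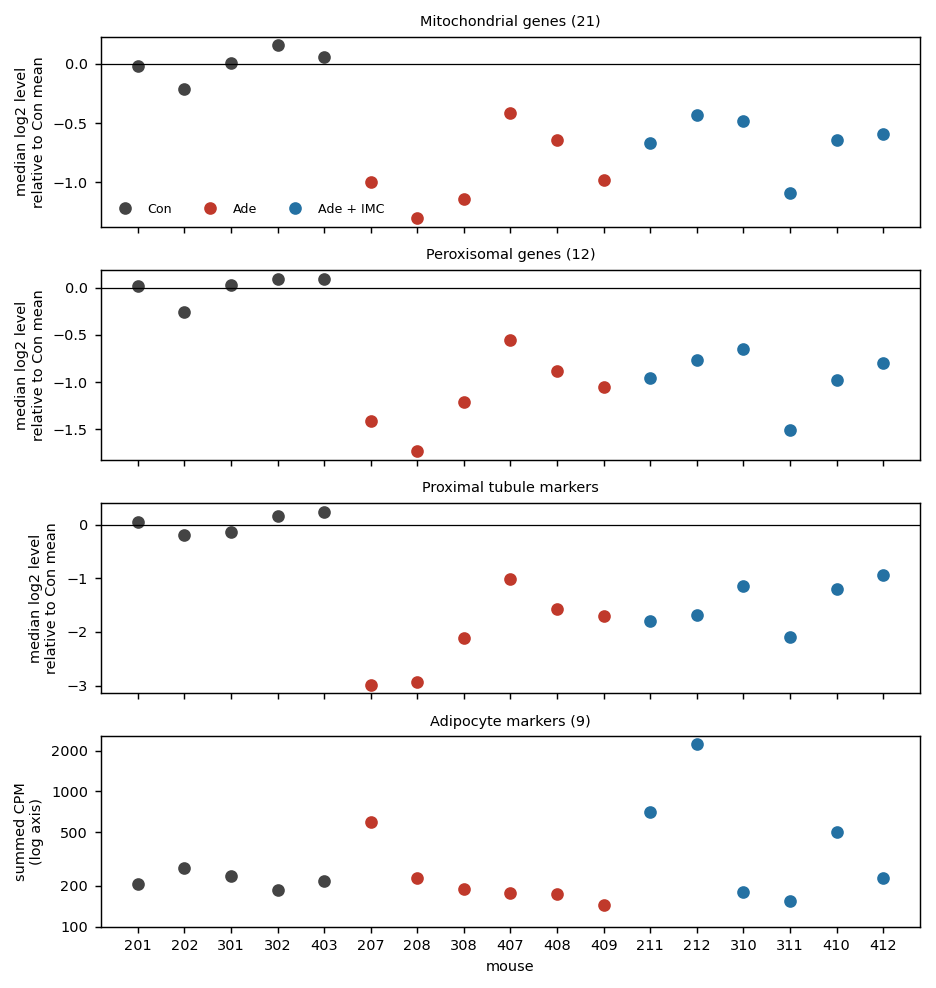
Median log2 level relative to the Con mean of the 21 mitochondrial genes, the 12 peroxisomal genes and the proximal tubule markers, and summed CPM of 9 adipocyte markers (log axis), in each mouse (x axis, mouse number) of the Con, Ade and Ade + IMC groups. Mouse 407 is the highest Ade mouse in the first 3 panels, and mouse 212 is highest in the last, at 2223 CPM.

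Genes of the same pathways outside the 41 were counted in Ade against Con, where 32.2% of all genes were called lower and 35.1% higher. Of 24 other mitochondrial fatty acid and ketone genes tested, 19 were called lower and 3 higher (median -0.80). Acsm5 (-2.05, adjusted p = 7.58e-05) and Oxct1 (-1.54, adjusted p = 3.89e-05), the enzyme that activates ketone bodies for use, had the largest falls. Cpt1c, a relative of Cpt1a best known from brain, rose from a median of 3.75 to 11.9 CPM (1.89, adjusted p = 2.45e-05), and Acsf2, an acyl-CoA synthetase, rose less (0.40, adjusted p = 0.0381). Of 38 other peroxisomal genes tested, 35 fell and 2 rose (median -0.88). Acnat2 (-2.53) and Baat (-2.18), which act on acyl-CoA and bile acids, fell most, and the membrane transporter Abcd2 rose (1.67). The 16 peroxin genes, which build the organelle, all fell, but by a smaller median of -0.48, from Pex5l (-1.89) and Pex3 (-0.85) to Pex14 (-0.22).

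Among 17 nuclear receptors and coactivators of the pathway, 12 fell and 2 rose (median -0.56), where 32.2% of all genes fell and 35.1% rose. Hnf4a, a receptor that maintains the proximal tubule programme, fell from a median of 980.1 to 251 CPM (-1.70 ± 0.20 SE, adjusted p = 7.48e-06), and Klf15 had a log2 fold change of -1.28 (adjusted p = 5.96e-05). Pparg, the receptor of fat cells, rose (1.15, adjusted p = 0.00739) from a low median of 2.30 CPM, with a value of 0.90 (adjusted p = 0.0135) without Ade mouse 207, and Nrf1 rose slightly (0.43, adjusted p = 5.38e-04). Of 13 other known PPARα target genes tested, 8 fell and 3 rose (median -0.98). The fatty acid hydroxylases Cyp4a14 (-1.65, adjusted p = 0.00845) and Cyp4a31 (-1.58, adjusted p = 2.59e-04) fell. Ucp2, a carrier of the inner mitochondrial membrane (1.66, adjusted p = 8.48e-08), and Angptl4, an inhibitor of lipoprotein lipase (0.9997, adjusted p = 0.0167), rose.

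With IMC in the adenine diet the genes were still below control. In the Ade + IMC group 38 of the 41 were lower than in the Con group and 0 higher, where 32.3% of all 14578 genes tested were lower and 30.9% higher. The median log2 fold change was -0.78, with -0.66 for the 21 mitochondrial and -1.01 for the 12 peroxisomal genes. Both this comparison and that of Ade with Con use the same 5 Con mice. The groups did not overlap in 28 of the 41 genes, as in 16.4% of all genes. The genes not called were Acsm3 (log2 fold change 1.13 ± 0.58 SE, adjusted p = 0.111), Slc25a20 (log2 fold change -0.26 ± 0.17 SE, adjusted p = 0.201) and Hadhb (log2 fold change -0.31 ± 0.17 SE, adjusted p = 0.131). Without Ade + IMC mouse 212 both Slc25a20 (-0.38, adjusted p = 0.0466) and Hadhb (-0.49, adjusted p = 0.00236) were called lower, and without the 3 mice with high Ucp1 37 genes were called, with a median of -0.78. In that last fit the log2 fold change of Acsm3 was -0.37 (adjusted p = 0.479) in place of 1.13, whereas Acsm3 was called higher with DESeq2 (adjusted p = 0.0905), upper-quartile scaling (0.0925), total-count scaling (0.0488) and the block by leading digit (0.0867). With libraries scaled to their total count 29 genes were called lower, the medians were -0.49 for the 41, -0.37 for the mitochondrial and -0.72 for the peroxisomal genes, against 0.27 over all genes, and Acaa1a, Eci2 and Slc25a20 were above 0. The smallest of the calls, Acaa1a (-0.17, adjusted p = 0.0854) and Eci2 (-0.23, adjusted p = 0.0647), were lost without Con mouse 301 (adjusted p = 0.160 and 0.159) and without several other single mice.

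Against the Con mice, Ppara had a log2 fold change of -1.97 ± 0.20 SE in the Ade + IMC group and of -1.98 ± 0.23 SE in the Ade group. Its level with IMC was 12.9 to 28.2 (median 22.9) CPM. For Ppargc1a the log2 fold changes against Con were -0.97 and -1.18. Hao2 had -1.95 in the Ade + IMC and -2.78 in the Ade group, Acadm -1.07 and -1.81, Acox2 -1.87 and -2.34, and Bdh1 -1.36 and -1.93. Abcd3 (-1.09 and -1.10), Hsd17b4 (-0.60 and -0.62) and Acot1 (-1.29 and -1.31) had nearly the same value in both. Whether IMC itself changed a gene is tested only by the direct comparison that follows.

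In the direct test of IMC, Ade + IMC against Ade by limma, none of the 41 genes was called. Of all genes, 0 of 14696 genes passed an adjusted p of 0.1 (0% higher and 0% lower), although 988 had an unadjusted p below 0.05, and on recovered reads edgeR called 0 genes and DESeq2 called 16 lower and 21 higher. The paper reports many more genes changed in each direction between these groups, by DESeq2 at the same threshold. Its up-regulated clusters include lipid metabolism and mitochondria. Why the counts differ was not tested. The smallest limma adjusted p among the 41 genes was 0.711. At an unadjusted p below 0.05, 8 of the 41 genes were higher with IMC and 0 lower, where 3.37% of all genes were higher and 3.35% lower. All 41 fitted log2 fold changes were above 0, as were 51.6% of those of all genes, with a median of 0.26 for the 41 genes, 0.26 for the mitochondrial and 0.19 for the peroxisomal ones. Without the 4 mice with high Ucp1 these medians were 0.13, 0.13 and 0.06, and 38 of the 40 genes then tested (Acsm3 was not) were above 0, as were 52.8% of all genes. Without Ade mouse 208, Ade mouse 308 or Ade + IMC mouse 310, 40 genes were above 0. The peroxisomal median was 0.11 without Ade mouse 207, and it was 0.31 without Ade mouse 407 and 0.31 without Ade + IMC mouse 311. The 41 genes were measured in the same mice, so they are not independent of each other. Proximal tubule markers had a median log2 fold change of 0.45 in the same comparison, with 0 of 18 called, and the adipocyte markers one of 1.05, with 0 of 9 called. Without the 4 mice the median of the proximal tubule markers was 0.42. No such median is given for the adipocyte markers, since the mice were picked by 1 of them, Ucp1, and only 4 of the 9 were then tested. Neither the part of the tubule markers nor that of the adipocyte markers in the result was tested.

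Acadm had the smallest p. Its level was 364 to 758 (median 541) CPM in the Ade + IMC and 157 to 710.0 (median 263) CPM in the Ade mice, 1.88-fold higher with IMC (log2 fold change 0.91 ± 0.31 SE, unadjusted p = 0.0117, adjusted p = 0.711). All 6 Ade + IMC mice were above 5 of the 6 Ade mice, and Ade mouse 407 was among the highest of both groups. Hao2 was at 206 to 650.4 (median 369) CPM with IMC and at 58.0 to 526 (median 151) CPM without (1.14 ± 0.47 SE, limma unadjusted p = 0.0281, adjusted p = 0.715). Acsl1 was at 235 to 488 (median 367) against 122 to 426 (median 214) CPM (0.69 ± 0.27 SE, limma unadjusted p = 0.0227). The groups overlapped in these 3 genes and in all others of the 41. Etfa was at 133 to 213 (median 177) CPM with IMC (0.32 ± 0.14 SE, limma unadjusted p = 0.0397). Hadhb was at 22.2 to 50.2 (median 29.5) CPM with IMC (0.38 ± 0.16 SE, limma unadjusted p = 0.0319), and its highest value was that of mouse 212. The other 3 genes below 0.05 were Echs1 (0.26), Acad10 (0.35) and Bdh1 (0.64). Without the 4 mice with high Ucp1 the log2 fold change was 0.95 for Acadm (unadjusted p = 0.0562 by limma), 1.07 for Hao2, 0.58 for Acsl1, 0.30 for Etfa, 0.18 for Hadhb, 0.23 for Echs1, 0.38 for Acad10 and 0.71 for Bdh1. In Hadhb the value in all mice was 0.38.

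**Figure D5:**
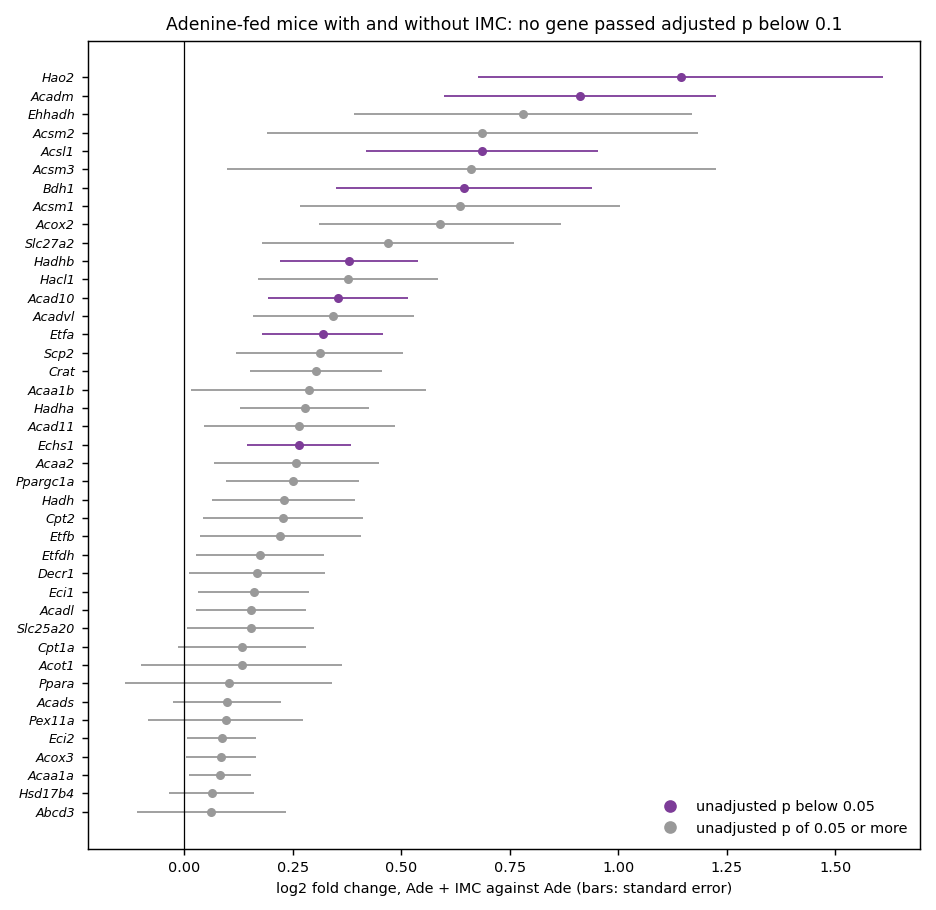
Log2 fold change (x axis) of each of the 41 genes between the Ade + IMC and Ade groups, with bars of 1 SE, ordered by size. All 41 points lie above 0, the 8 genes with an unadjusted p below 0.05 are purple, and none passed an adjusted p of 0.1.

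The count of 8 depended on single mice. It was 22 without Ade mouse 407 and 16 without Ade + IMC mouse 311, and it was 1 without Ade mouse 208, 2 without 308, 3 without 207 or 409, 3 without Ade + IMC mouse 212, 310 or 412, and 5 without 410. The number of all genes below 0.05, in either direction, moved too, from 988 of 14696 to 1899 of 14713 without mouse 407, 1585 of 14659 without 311 and 616 of 14693 without 208. With the 4 mice with high Ucp1 left out none of the 8 genes was below 0.05, and the 1 gene that was, Ppargc1a (0.46, limma unadjusted p = 0.0367), was not among them, where 585 of 14695 genes were below 0.05. That fit holds 5 Ade and 3 Ade + IMC mice. With fewer mice a p below 0.05 is harder to reach, so the lost calls do not tell what fat transcripts contributed. With mice blocked by the leading digit of their numbers, a digit the labels do not explain, 18 of the 41 and 2007 of all 14696 genes were below 0.05 and Acadm alone of the 41 was called (1.02, adjusted p = 0.0974), where 60 of all genes were called lower and 73 higher. The log2 ratio of Acadm to Acadl, one of the pairs chosen on their values, was 0.999 ± 0.38 (SD, n = 6) with IMC and 0.24 ± 0.65 (SD, n = 6) without. The groups overlapped (0.41 to 1.41 and -0.44 to 1.34), and without the mice with high Ucp1 the means were 1.21 and 0.35.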

How the data were processed

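Kidney RNA from 5 Con, 6 Ade and 6 Ade + IMC mice was sequenced. Raw counts were deposited for Con and Ade. The table that the authors deposited for Ade + IMC, which holds Ade again, has a normalized signal for each gene, namely the count divided by the DESeq2 size factor of the library, from which whole reads were recovered for 100% of values. For the 6 Ade mice these reads equalled the raw counts in the 20634 genes that both tables hold. Per the study's methods reads were aligned with STAR to mm10, whereas the submitters' processing notes list Trimmomatic 0.39, FastQC 0.11.8, Bowtie2 2.2.5, HTSeq 0.9.1 and DESeq2. Neither the annotation nor whether strand was used in counting is given in the sources used here. Another table, of which only the gene symbols were used, holds the authors' own comparison (log2 fold changes and p-values).

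Ade and Ade + IMC were compared with Con by the quasi-likelihood test of edgeR 4.0.16 (R 4.3.3, TMM scaling, filterByExpr), and Ade + IMC with Ade on log2(signal + 1) by limma 3.58.1 (trend) over genes with a mean of at least 10. The threshold was a p of 0.1 after Benjamini-Hochberg adjustment, and the scripts were tested on simulated data. DESeq2 1.42.0, other scalings, filters and pseudocounts, a block and each mouse left out were tried. The SE of edgeR was taken as the log2 fold change divided by the square root of F. Genes given with single-mouse values in Con, and with the range and median in the other groups, were the 3 of each role with the largest change in Ade against Con and the 5 with the smallest p in Ade + IMC against Ade, with up to 4 named from each other list. Some genes that this rule names in the other lists are not reported here. The genes, lists and tests were chosen with earlier results of these data known. Total counts per mouse ran from 5444833 to 11680809. Planned checks of the protein sequences were not made.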

Additional observations from a re-analysis of the deposited data

Results flagged for a closer look

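In each gene and group the gap between the most extreme mouse and the next, divided by the range, was compared with Dixon's 95% limit. Of 123 groups 13 passed it. About 1 in 20 would pass if values were independent and normal, but the groups reuse the same mice and the values are unlogged CPM. The count is therefore not a measure against chance. In the Ade group, mouse 407 stood above the others in 5 genes. It had 710.04 CPM of Acadm (157 to 332 in the others), 468 of Ehhadh (68.9 to 192), 79.4 of Slc25a20 (47.9 to 58.6), 74.3 of Eci1 (47.4 to 57.3) and 67.1 of Pex11a (36.9 to 45.2). In the Ade + IMC group, mouse 212 stood above the others with 445 CPM of Hadha (239 to 309.5), 50.2 of Hadhb (22.2 to 31.1) and 11.001 of Acsm3 (1.02 to 4.51). Acsm3 was also high in Con mouse 202, at 3.03 CPM (1.31 to 1.69), and in Ade mouse 207, at 6.23 CPM (0.909 to 1.49). Cpt1a was at 524 CPM in Ade + IMC mouse 310 (327 to 396), Cpt2 at 74.9 CPM in Ade + IMC mouse 311 (111 to 127), and Acox3 at 204 CPM in Con mouse 403 (147 to 162).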

How the results depend on the processing

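With libraries scaled to their total count, the median of all genes moved to 0.317 in Ade against Con (2497 lower and 7990 higher, against 4706 and 5135) and to 0.274 in Ade + IMC against Con (2247 and 7531, against 4715 and 4504). Relative to it the 41 genes had medians of -0.96 and -0.76 (-0.95 and -0.76 with TMM). Under that scaling 35 and 29 genes were called lower, the medians in Ade + IMC against Con were -0.49 for all 41, -0.37 for mitochondrial and -0.72 for peroxisomal genes, and the log2 fold changes of Acaa1a (0.0871 and 0.122), Eci2 (0.0163 and 0.0620) and, with IMC, Slc25a20 (0.0309) changed sign. Acsm3 was called higher in Ade + IMC against Con (1 gene in place of 0) with DESeq2, upper-quartile scaling, total counts and the block, and in 0 to 1 genes with single mice left out, being called without Con mouse 202 and without Ade + IMC mouse 310, 311 or 412. In Ade against Con its log2 fold change ran from -0.40 to 0.59 with single mice left out and was -0.40 without the mouse with high Ucp1. It was -0.37 in Ade + IMC against Con without such mice, a setting chosen after seeing the data.

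In Ade + IMC against Ade the number of genes higher at an unadjusted p below 0.05, 8 by limma, was 2 with edgeR on recovered reads, 5 with TMM scaling, 18 with the block, 1 without the mice with high Ucp1 (a gene outside the 8) and 1 to 22 with single mice left out. Over all genes, in either direction, the number was 985, 1001, 2007, 585 and 616 to 1899 in the same order. Over all genes, 0 were called by limma (988 at an unadjusted p below 0.05), 0 by edgeR, and 16 lower and 21 higher by DESeq2. Without the mice with high Ucp1, Slc25a20 was at -0.0036 and Acaa2 at -0.0107. With single mice left out Ppara ran from -0.0283 to 0.267 and Abcd3 from -0.0227 to 0.185. The causes were not tested. No paired analysis was possible because the labels give no replicate number that pairs mice of different groups. The leading digit of the mouse numbers is shared by the groups without being explained. Blocking by it called 1 of the 41 genes, Acadm (1.02), in place of 0, and 60 lower and 73 higher over all genes.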

Other observations

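Between the Ade + IMC and Ade groups, limma called 0 genes of the tubule and injury lists as well. At an unadjusted p below 0.05, where 3.37% of all genes were higher and 3.35% lower, 4 of 6 collecting duct markers were higher with IMC, among them Slc4a1, the anion exchanger of intercalated cells (log2 fold change 0.76). Of 8 markers of the thick ascending limb and distal tubule 3 were higher, among them Egf (1.03) and Pvalb (1.07), and of 9 injury genes 4 were lower, among them Clu (-0.58). Of 18 proximal tubule markers 2 were higher. With single mice left out the counts ran from 3 to 4, from 0 to 6, from 2 to 7 and from 0 to 13, and without the 4 mice with high Ucp1 they were 2, 0, 2 and 0. Over all genes, in either direction, 616 to 1899 and 585 genes were below 0.05 in these fits, against 988 in all mice. These genes were picked after their values were seen.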
